A study of Rattus norvegicus with 2 samples.

Results

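The subject here is a set of 8 genes known from Schwann cells, the glia of peripheral nerves, and from the myelin they make: Fabp7, Ngfr, Sox10, Erbb3, S100b, Pou3f1, Pmp22 and Mbp. Their probes were found on both arrays as the spots, other than controls, that carry these gene names. All 8 genes were found, through 9 probes and 27 spots per array, among 41012 probes in all. They belong to 14788 genes that were detected, and each of the 8 was well above background in both pools. The set compares genes of immature glia, Fabp7 and Ngfr, with the myelin genes Pmp22 and Mbp across 2 days of skin development.

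Skin was taken from Sprague Dawley rat fetuses, with no treatment or engineered allele in either group. The E16 group is day 16.5 of gestation and is a single RNA pool of 4 samples. The E19 group is day 18.5 and is a single RNA pool of 3 samples. The body site, the depth of the dissection and the sex of the fetuses are not given in the sources used here. Both pools were hybridised together to 2 arrays with the dyes exchanged, so there is 1 replicate per stage, no spread between animals could be measured, and no test between stages was possible. Each value below is a log2 ratio of E19 over E16, negative where the E16 pool was higher, given as the mean of both arrays ± their SD, which is technical. The word called is kept for a ratio of at least 2-fold in 1 direction on both arrays. Counts from a single array, or from a table in which the authors combined both arrays, rest on 1 ratio past 2-fold. That rule is looser.

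Schwann cells arise from neural crest cells that migrate along growing axons. They pass through precursor and immature stages under the control of axonal neuregulin, and around birth they either wrap axons in myelin or ensheathe several small axons without it. Skin holds Schwann cells along its sensory and autonomic nerves and around nerve endings. Immature Schwann cells carry Ngfr and Fabp7, and myelin genes are known to rise in peripheral nerve around birth, after the later of these stages.

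The share of spots measured clearly over background was 71.5% to 74.3% by channel, and saturation touched no more than 15 spots in any channel. Over all detected genes the median log2 ratio was 0.02, the middle 95% lay between -1.38 and 1.35, and the median SD between the arrays was 0.11. By the 2-fold rule, E19 was higher for 4.15% of genes and E16 for 3.75%. Spots of the 10 spike-in RNAs averaged 0.22, so centring on them lowers every log2 ratio by that amount.

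Among the 8 genes, Fabp7 was called higher in E16, Pou3f1 was called higher in E19, and the other 6 were not called. That is 1 of 8 in each direction, beside 3.75% and 4.15% of all genes. Ngfr lay just outside the rule towards E16 and Pou3f1 just inside it towards E19. At 1.5-fold, Fabp7 and Ngfr passed towards E16, beside 7.69% of all genes, and Pou3f1 towards E19, beside 9.56%. At 3-fold, Fabp7 passed towards E16, beside 1.56% of genes, and none of the 8 towards E19, beside 1.2%. The 2 myelin genes lay near 0, so the immature genes and the myelin genes differed by a log2 value of -2.96 ± 0.10, most of it from Fabp7.

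**Figure D1:**
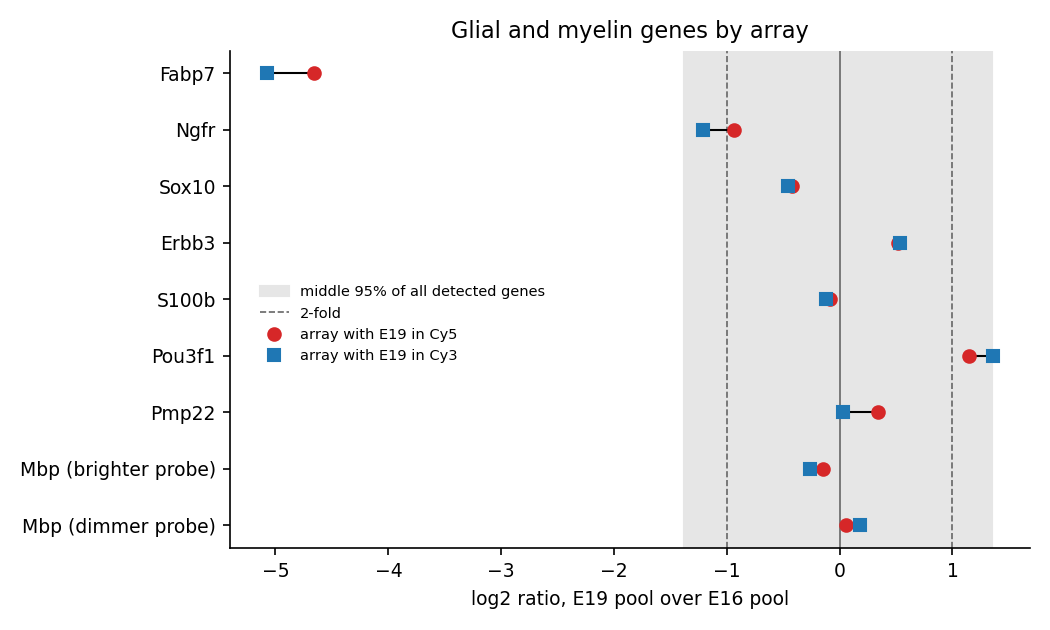
Log2 ratio of the E19 pool over the E16 pool (horizontal axis) for each probe of the 8 genes, with a circle for the array with E19 in Cy5 and a square for the array with E19 in Cy3. The grey band holds the middle 95% of detected genes, from -1.38 to 1.35, and the dashed lines mark 2-fold. Fabp7 alone lies outside the band on both arrays, and the circle of Ngfr lies inside the 2-fold line.

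Fabp7 encodes a small cytosolic fatty acid binding protein of radial glia, glial precursors and immature Schwann cells. On the array with E19 in Cy5, its normalised log2 intensity was 14.12 in the E16 pool and 9.47 in the E19 pool. On the array with E19 in Cy3, it was 14.05 in E16 and 8.97 in E19. Each E16 value lay far above each E19 value, and the probe was still well above background in E19 on both arrays. The ratios were -4.66 and -5.08, which is 25.2-fold and 33.8-fold higher in E16. Of all 14788 detected genes, Fabp7 had the lowest ratio. Its 2 arrays differed by more than is usual, since only 10.6% of genes had a larger SD than its 0.30. The direction and the call held under every alternative run, between -5.12 and -4.66. In these bulk pools, fewer cells carrying a transcript and less transcript per cell cannot be told apart, for Fabp7 or for any gene below.

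Ngfr encodes p75, the receptor that all neurotrophins share, which marks migrating crest cells and immature and non-myelinating Schwann cells. Its log2 intensity was 12.27 in E16 and 11.34 in E19 with E19 in Cy5, and 12.32 in E16 and 11.10 in E19 with E19 in Cy3. The E16 values were higher than the E19 values on both arrays, without overlap. The ratios were -0.94 and -1.21, with a mean of -1.08 ± 0.20, so only the latter array passed 2-fold.

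Ngfr is printed 10 times on each array, which gives a measure of spot error. With E19 in Cy5, the 10 spots had ratios from -0.99 to -0.89 and an SD of 0.04. With E19 in Cy3, 3 spots were left out as outliers, and the 7 others ranged from -1.30 to -1.12 with an SD of 0.08. The spots of the 2 arrays did not overlap, so the gap between arrays was larger than the error between spots, and it decided whether Ngfr passed the rule. Ngfr passed it with the array with E19 in Cy3 alone (-1.21), centred on the spike-ins (-1.29) and in the authors' deposited table, where its combined ratio was -1.12.

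**Figure D2:**
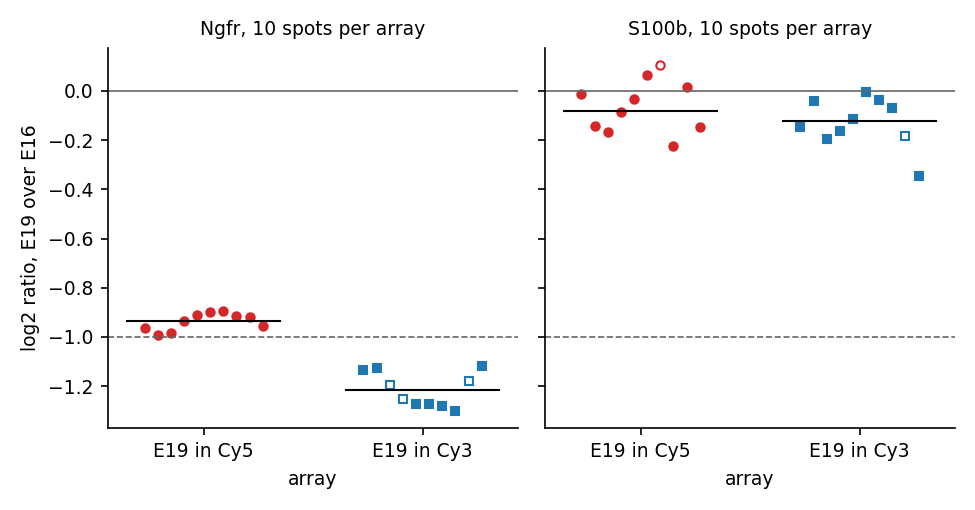
Log2 ratio, E19 over E16 (vertical axis), of each spot of Ngfr (left) and S100b (right) on both arrays. Filled symbols were used, open symbols were left out as outliers, black lines are the means of the used spots and the dashed line marks 2-fold. All Ngfr spots with E19 in Cy5 lie above the dashed line and all with E19 in Cy3 lie below it, while the S100b spots lie around or just below 0.

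Pmp22 encodes an integral membrane protein of compact myelin that is also expressed outside nerve, among others in fibroblasts. Its log2 intensity was 14.86 in E16 and 15.20 in E19 with E19 in Cy5, and 14.83 in E16 and 14.86 in E19 with E19 in Cy3. The mean ratio was 0.18 ± 0.22, so the SD between the arrays was larger than the ratio. Its sign turned to -0.03 when the ratios were centred on the spike-ins. In the same pools, 7 of 8 fibroblast markers had ratios above 0, and 1 was called higher in E19 (12.5%, beside 4.15% of all genes). Their median was 0.62, with 0.97 where E19 carried Cy5 and 0.28 where it carried Cy3. The part of fibroblasts in the Pmp22 value was not tested.

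Mbp encodes myelin basic protein, which holds the cytoplasmic faces of the myelin membrane together. The array has a probe annotated to each of 2 transcript variants of Mbp, and the 2 probes did not point the same way. Whether each probe reads only its own variant was not tested. The brighter probe, for variant 1, had log2 intensities of 8.05 and 8.28 in E16 and 7.90 and 8.02 in E19. Its ratio was -0.21 ± 0.08. The dimmer probe, for variant 3, had 6.86 and 6.91 in E16 and 6.91 and 7.09 in E19, with a ratio of 0.12 ± 0.09. Both ratios were small beside the range of all genes, and neither probe came near 2-fold on either array.

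**Figure D3:**
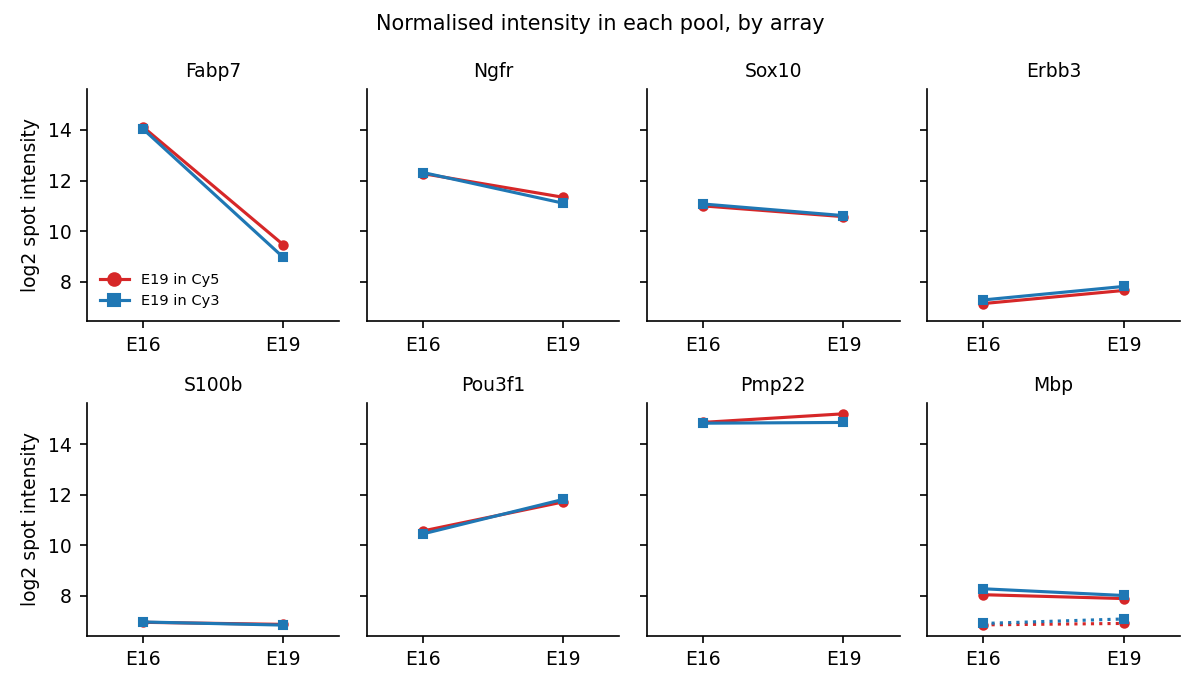
Normalised log2 spot intensity (vertical axis) in the E16 and E19 pools for each of the 8 genes, with a line per array (circles, E19 in Cy5; squares, E19 in Cy3). Dotted lines are the dimmer Mbp probe; heights cannot be compared between genes, because each probe has its own response. Fabp7 drops from about 14.1 to 9.22, Pou3f1 climbs from 10.5 to 11.8, and the lines of Pmp22, Mbp and S100b are nearly flat.

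The mean ratio of Fabp7 and Ngfr was -2.97 ± 0.25, against -0.01 ± 0.15 for Pmp22 and Mbp. Their difference was -2.89 where E19 carried Cy5 and -3.03 where it carried Cy3. Fabp7 was at -5.05 ± 0.08 relative to Pmp22 and at -4.66 ± 0.22 relative to Mbp. Ngfr stood apart by less, at -1.26 ± 0.02 relative to Pmp22 and -0.87 ± 0.12 relative to Mbp. Relative to the mean of both myelin genes, Ngfr was at -1.06 ± 0.05, lower on both arrays. With the median of the 26 detected genes of a longer immature list, which includes Fabp7 and Ngfr, in place of their mean, the difference shrank to -0.42.

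The bases just before the transcription start of Fabp7, Pmp22 and Mbp are shown because these genes carry the contrast of immature and myelin genes. They are from RefSeq (GRCr8) and run for 250 bases, 5′ to 3′. Of the 8 genes, 4 matched an entry: Fabp7, S100b, Pmp22 and Mbp, the last with 2 starts. The motifs searched, on both strands, were the POU octamer ATGCAAAT, the Sox cores ACAAAG and AACAAT, and the Egr site GCGTGGGCG. The Sox cores can overlap by a few bases, and no 2 matches shown do. Capitals mark matches. The downstream Mbp start lies inside the longer Mbp gene, so its window may include exon bases of the longer transcript.
Fabp7, chr20:37669356-37669605, plus strand: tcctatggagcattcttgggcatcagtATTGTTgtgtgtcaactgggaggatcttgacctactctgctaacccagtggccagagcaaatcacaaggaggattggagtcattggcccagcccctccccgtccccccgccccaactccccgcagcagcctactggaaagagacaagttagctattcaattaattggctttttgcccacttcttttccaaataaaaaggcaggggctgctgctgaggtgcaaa
Pmp22, chr10:48294682-48294931, plus strand: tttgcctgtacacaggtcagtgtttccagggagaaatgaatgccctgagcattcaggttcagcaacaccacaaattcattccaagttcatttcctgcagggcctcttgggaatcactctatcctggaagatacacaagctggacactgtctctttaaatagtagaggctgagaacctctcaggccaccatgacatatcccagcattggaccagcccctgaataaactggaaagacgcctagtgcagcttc
Mbp, downstream start, chr18:78209995-78210244, plus strand: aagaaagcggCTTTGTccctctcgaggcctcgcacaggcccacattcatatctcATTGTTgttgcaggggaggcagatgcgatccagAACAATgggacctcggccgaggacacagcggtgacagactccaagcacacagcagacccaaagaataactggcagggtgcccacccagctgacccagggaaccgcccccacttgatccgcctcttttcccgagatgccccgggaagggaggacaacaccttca

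The Fabp7 window held 1 AACAAT match, on the minus strand, which begins at position -223, counting back from the start. The downstream Mbp window held 2 AACAAT matches and 1 ACAAAG match. The windows of Pmp22, S100b and the upstream Mbp start held none of the 4 motifs. Among 33469 RefSeq windows of the same length, 10.3% held AACAAT, 16.3% held ACAAAG, 1.56% held the octamer and 0.478% held the Egr site. These are letter matches only, and they say nothing on whether a factor binds.

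Sox10, the transcription factor that Schwann cells and melanocytes need from the crest stage onwards, had log2 intensities of 11.00 and 11.07 in E16 and 10.57 and 10.61 in E19. The E16 values were higher on both arrays, with a ratio of -0.44 ± 0.02 that is small in size but steady, since 88.4% of genes had a larger SD. This is 1.36-fold higher in E16 and was not called. The melanocyte markers, which share Sox10, went the other way as a list (median 0.91). Of 6 detected, 2 were called higher in E19 (33.3%, beside 4.15% of all genes), Tyrp1 (1.63 ± 0.19) and Mlana (1.26 ± 0.16). That count was 1 when centred on the spike-ins, and 4 with processed signals and in the authors' deposited table. The part of melanocytes in the Sox10 value was not tested.

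Erbb3, the receptor through which Schwann cells respond to neuregulin, had log2 intensities of 7.14 and 7.28 in E16 and 7.65 and 7.81 in E19. Both E19 values were above both E16 values. The ratio was 0.53 ± 0.01, 1.44-fold higher in E19, and 94.3% of genes had a larger SD. It was not called in any setting run. The size of the ratio moved with the processing. It was 0.78 with normexp offset 0, 0.96 with Feature Extraction's processed signals and 0.31 when centred on the spike-ins. Erbb3 and Sox10 therefore pointed in opposite directions, each by less than 2-fold.

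S100b encodes a calcium-binding protein of Schwann cells, also found in cartilage and fat cells. It was dim, with log2 intensities of 6.96 and 6.97 in E16 and 6.88 and 6.85 in E19. Of its 9 used spots with E19 in Cy3, 9 were well above background in E16 and 5 in E19. The ratio was -0.10 ± 0.03, and the used spots spread from -0.22 to 0.07 on the first array (E19 in Cy5) and from -0.34 to -0.01 on the other. Of the used spots, 7 of 9 and 9 of 9 lay below 0. The ratio was small beside the range of all genes and kept its sign in every alternative run, from -0.32 to -0.03. In the same pools, cartilage markers were lower in E19 (5 of 7 called, beside 3.75% of all genes, median -1.90). Fat cell markers were higher (6 of 7 called, beside 4.15% of all genes, median 2.18, or 3.20 with processed signals). The part of cartilage and fat cells in the S100b value was not tested.

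Pou3f1 encodes Oct-6, the POU factor that promotes the step from immature to myelinating Schwann cell and is also expressed in differentiating keratinocytes. Its log2 intensity was 10.57 in E16 and 11.72 in E19 with E19 in Cy5, and 10.45 in E16 and 11.82 in E19 with E19 in Cy3. The E19 values were higher on both arrays, by 2.22-fold and 2.57-fold. The mean ratio of 1.26 ± 0.15 exceeded that of 96.9% of detected genes. It fell below the 2-fold rule with median centring in place of loess and when centred on the spike-ins (1.04 as a mean of both arrays), and it passed under the 11 other ways of computing the ratios. Keratinocyte markers moved with it. Of 8 detected, 5 were called higher in E19 (62.5%, beside 4.15% of all genes). All 8 had mean ratios above 0, with a median of 1.63. The count depended on the scaling and the array. It was 1 with median centring, 3 when centred on the spike-ins and 8 in the authors' deposited table. From the array with E19 in Cy5 alone it was also 8, and from the array with E19 in Cy3 alone the median was 1.12. Examples are the desmosomal cadherin Dsc3 (1.94 ± 0.03) and involucrin, Ivl (1.47 ± 0.01). Their summed log2 level was 17.6 to 19.3 in E16 and 20.1 to 20.2 in E19. Among these markers the arrays differed most for Krt14, Krt1 and Krt10, and Krt14 was at 3.27 with E19 in Cy5 and 0.74 with the dyes exchanged. The part of keratinocytes in the Pou3f1 value was not tested.

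The longer list of immature Schwann cell and neural crest genes leaned towards E16. It includes Fabp7, Ngfr, Sox10, Erbb3 and S100b, so its counts and median are not separate from their values. Of 27 on the list, 26 were detected, and 7 were called higher in E16 (26.9%, beside 3.75% of all genes) and none towards E19, or 1 with processed signals and in the authors' deposited table. The list median was -0.43, against 0.02 over all genes, and 20 of 26 mean ratios were below 0. Besides Fabp7, the genes called were Gap43 of growing axons and precursor glia (-2.02 ± 0.14), the adhesion molecule L1cam (-1.74 ± 0.23), the cadherins Cdh2 (-1.61 ± 0.10) and Cdh6 (-1.25), the intermediate filament gene Nes (-1.48 ± 0.22) and Gfap (-1.12 ± 0.09). Gap43, L1cam, Cdh2 and Nes are also known from neurons or neural progenitors, and Gfap is also on the list of central neural markers below. The crest factors Foxd3 (-0.10 ± 0.14) and Pax3 (-0.09 ± 0.07) lay near 0. Both were dim, with log2 intensities from 6.69 (Pax3 in E19) to 7.19 (Foxd3 in E16). Of the 26, 6 had ratios above 0, none of them called. The highest were Moxd1 (0.88 ± 0.13), the crest factor Tfap2a (0.72 ± 0.06) and Ptprz1 (0.66 ± 0.22), whose dimmer probe was at -0.75.

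Myelin genes passed the rule at near the share of all genes. Of 17 detected, Pmp22 and Mbp among them, only Mpzl2 was called higher in E19 (1.43 ± 0.05). That is 5.88%, beside 4.15% of all genes. Towards E16, 0 were called, beside 3.75% of all genes. The count towards E19 was 0 with median centring, and 2 with processed signals and in the authors' deposited table. Towards E16 it was 1 from the array with E19 in Cy5 alone. The median was -0.06, with 8 ratios above 0 and 9 below. Mpzl2 is an adhesion molecule known from epithelia despite its name. Mag, the adhesion protein next to the axon, was at -0.22 ± 0.02. Mal (0.76 ± 0.01) and Cd9 (0.73 ± 0.12), membrane proteins that epithelia also carry, were the highest after Mpzl2. Periaxin, Prx, was at 0.03 ± 0.04. The 17 detected myelin genes were all well above background in both pools, so their ratios are not bounds. Some were dim all the same, such as Mag, with log2 intensities of 7.08 and 7.07 in E16 and 6.87 and 6.83 in E19. Of 24 on the list, Gjb1, Ugt8 and Nfasc were on the array but not detected. Pmp2, Gal3st1, Fa2h and Ncmap had no named probe.

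Transcription regulators of the Schwann cell lineage had a median of -0.11. Of 21 detected, 2 were called higher in E19 (9.52%, beside 4.15% of all genes) and 0 higher in E16 (beside 3.75%). Besides Pou3f1, the gene called was Id4, an inhibitor of basic helix-loop-helix factors (1.07 ± 0.09), whose dimmer probe was at 0.26. Neither of the 2 was called with median centring or when centred on the spike-ins, and 1 was where the probes of a gene were averaged. Towards E16, the count was 1 with normexp offset 0, with processed signals and in the authors' deposited table. Egr2, the master regulator of myelination that follows Pou3f1 in development, was at -0.20 ± 0.38 and changed sign between the arrays. Its corepressor partner Nab1 was at 0.85 ± 0.06, and the lipid synthesis regulator Srebf1 at 0.80 ± 0.02. Sox2, which keeps Schwann cells immature, was at -0.85 ± 0.10. Pou3f2, a relative of Pou3f1, did not rise well above background in E19. Its E16 level is given as at least 1.54-fold higher, which is its measured ratio.

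No gene of the neuregulin and ErbB list was called, of 15 detected, beside 4.15% and 3.75% of all genes. The median was 0.15. The ligand gene Nrg1 was at 0.50 ± 0.49, with 0.85 and 0.15 on the single arrays. Erbb2, the partner with which Erbb3 signals, was at 0.15 ± 0.36 and changed sign between the arrays. Adam17, a protease that sheds neuregulin, was at 0.44 ± 0.25, the adaptor Shc1 at 0.39 ± 0.09 and the phosphatase Ptpn11 at -0.43 ± 0.20. By the brightest probe of each gene, Erbb3 had the highest ratio of the list, while the dimmer probe of Nrg1 was at 0.55. Centred on the spike-ins, the list median was -0.07.

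In the neurotrophin list, 3 of 21 detected genes were called towards E16 (14.3%, beside 3.75% of all genes) and 0 towards E19. The median was -0.33. The count towards E16 was 5 on the array with E19 in Cy3 alone, 5 when centred on the spike-ins and 6 in the authors' deposited table. Among them, the receptor Ntrk2, which binds Bdnf, was at -2.63 ± 0.04, while its dimmer probe was at -0.17. Ntrk3, the receptor for Ntf3, was at -0.79 ± 0.08. The sortilin relative Sorcs3 did not rise well above background in E19. Its E16 level is given as at least 2.25-fold higher, which is its measured ratio. Bex3, an adaptor that binds the intracellular part of Ngfr, was at -1.02 ± 0.06, close to Ngfr itself, and the coreceptor Sort1 was at 0.35 ± 0.04. Among the ligands, Ntf3 was at -0.51 ± 0.22, Bdnf at -0.32 ± 0.26 and Ntf4 at -0.07 ± 0.11.

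**Figure D4:**
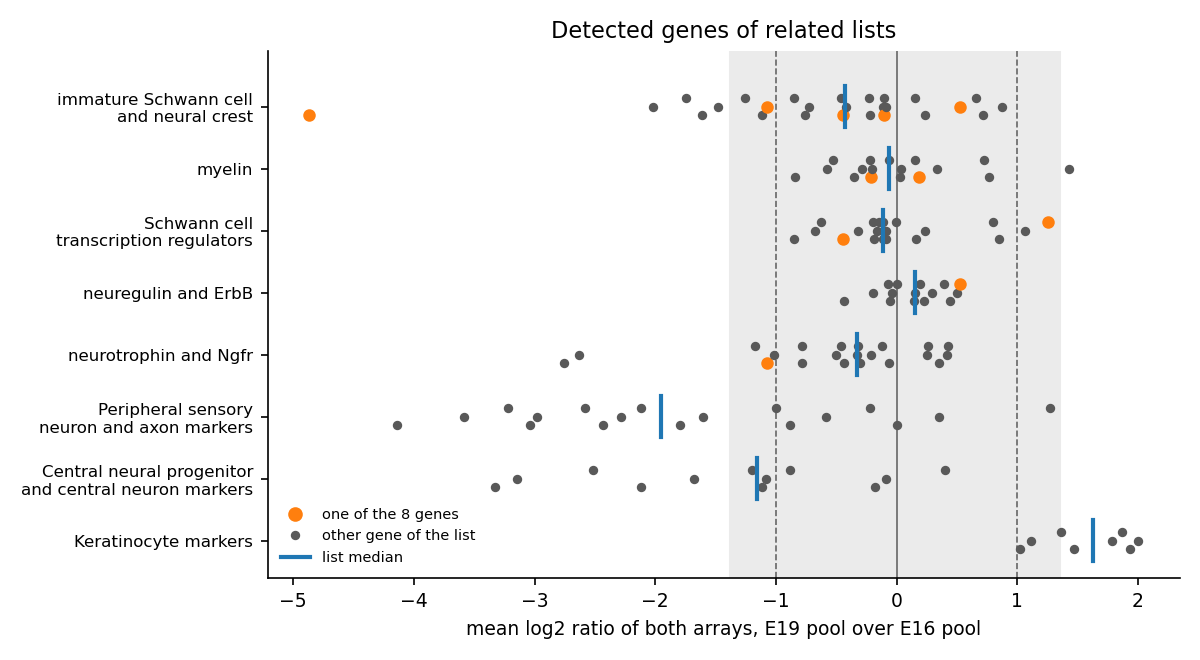
Mean log2 ratio of both arrays, E19 over E16 (horizontal axis), of each detected gene in 8 lists; large orange points are among the 8 genes described, small grey points are other genes of the list, and blue bars are list medians. The grey band is the middle 95% of all detected genes and dashed lines mark 2-fold. Neuron lists lie furthest to the left (medians -1.95 and -1.16), the immature glial list less so (-0.43), and the myelin and neuregulin lists straddle 0.

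Most markers of neurons moved with the immature glial genes. Of 18 detected markers of peripheral sensory neurons and axons, 11 were called higher in E16 (61.1%, beside 3.75% of all genes). Only 1, the neurofilament Nefh (1.27 ± 0.14), was called higher in E19 (5.56%, beside 4.15%). The median was -1.95. Nefh was not called with median centring or when centred on the spike-ins. Their summed log2 level was 15.9 in E16 on both arrays and 14.1 to 14.3 in E19. The largest ratios were those of Stmn2 (-4.14 ± 0.35) and Ina (-3.59 ± 0.13), both of the neuronal cytoskeleton. The list was not uniform. Among genes not called, Pou4f1 was at 0.35 ± 0.25, Avil at -0.22 ± 0.05 and Scn10a at -0.59 ± 0.05. Calca was at 0.38 and -0.38 on the single arrays, while Tac1 (-2.43 ± 0.41) was called higher in E16. The pain fibre sodium channel Scn9a did not rise well above background in E19. Its E16 level is given as at least 4.33-fold higher, which is its measured ratio.

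Markers of central neural progenitors and central neurons moved the same way. Of 12 detected, 7 were called higher in E16 (58.3%, beside 3.75% of all genes) and 0 higher in E19. The median was -1.16, and the summed log2 level was 15.7 to 15.8 in E16 and 14.03 to 14.17 in E19. The median was -2.49 with processed signals and -2.39 in the authors' deposited table, and the count fell to 3 among genes well above background in both pools. The neuronal microtubule protein gene Dcx was at -3.14 ± 0.10 and the progenitor factor Pax6 at -2.12 ± 0.09. The glutamate receptor gene Gria2 and the neuronal factor Neurod1 were not well above background in E19. Their E16 levels are given as at least 9.42-fold and 5.20-fold higher. Gad2, Olig2 and Aqp4 were not detected in either pool. Gfap (-1.12 ± 0.09), called higher in E16, is also on the immature list, so the lists are not fully separate. Fabp7 is also a gene of central progenitors, and the part of central or peripheral nervous tissue in its value, and in those of Ngfr and the immature list, was not tested.

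Of the 12 markers fixed for the Schwann cell lineage, the 8 genes included, 11 were detected in both pools and the crest cadherin Cdh19 in neither. The median was -0.21, with 4 ratios above 0 and 7 below. The summed log2 level was 15.8 to 15.9 in E16 and 15.3 to 15.6 in E19. Gfra3, a receptor subunit of immature Schwann cells, was at 0.16 ± 0.10.

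By the summed distance of log2 ratios over both arrays, the genes nearest to Fabp7 were Chgb of secretory granules (-4.71 and -4.67, distance 0.45), Gas2 (-4.41 and -4.38, distance 0.94) and Cnmd of cartilage (-4.03 and -4.30, distance 1.41). Nearest to Pou3f1 were Prrg2, Mlana and Nefh, each within 0.03. With a single pool per stage this says only that their ratios were alike in size.

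In the authors' deposited table, which combines the same 2 arrays, the log2 ratios were -5.08 for Fabp7, 1.30 for Pou3f1, -0.47 for Sox10, 0.96 for Erbb3, -0.23 for S100b and 0.17 for Pmp22. That table gave -0.25 for the brighter Mbp probe and 0.39 for the dimmer probe, so the 2 probes differed in sign there too.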

How the data were processed

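Agilent Feature Extraction 9.5.1.1 read both channels, per the file headers. For every spot the authors deposited a mean intensity, a local median background intensity and processed intensities. No build is given in the sources used here. A table by the authors combines both arrays as a log10 ratio, deposited with no stated direction and read as E19 over E16 because it correlated across 29365 probes with the ratios of both arrays turned that way (r = 0.90 and 0.89).

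Mean intensities were background-corrected (normexp, offset 50) and loess-normalised within arrays with limma 3.58.1 in R 4.3.3, with control spots at weight 0. Outlier spots were left out, spots of a probe were averaged, and levels were scaled between arrays by Aquantile. A probe was detected when at least 50% of its used spots were well above background for 1 pool on both arrays, and a gene took its brightest detected probe. Probes were named through RefSeq by accession (10735), symbol (5577) or synonym (3730), 3364 by the files' own name only, and 17606 were left unnamed. At least N-fold values set the brighter pool against the higher of the dim probe's level and the lowest well-measured level. For Pou3f2, Sorcs3 and Scn9a the value equals the measured ratio, so it sets no limit beyond that ratio. The number of arrays limits the precision. The genes and lists were chosen with earlier results of these data known. From each list, up to 4 genes with the largest ratios and any gene measured in 1 pool were to be named, with the 3 genes nearest to each called gene; others were chosen after their values were seen, and some list genes are counted but not reported here by name. Alternatives changed background correction, normalisation, spot and probe filters, probe rule, threshold, gene groups and array. A planned comparison of Fabp7 protein sequences was not run, and flags were lifted both from values and from detection where outlier spots were kept. The steps were tested on simulated data.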

Additional observations from a re-analysis of the deposited data

How the results depend on the processing

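The difference of immature and myelin genes kept its sign under every alternative run. It was -3.08 with Feature Extraction's processed signals and -3.06 in the authors' deposited table, against -2.96. With Pou3f1 added to the myelin group it was -3.38, and with the median of the longer immature list -0.42. The last 2 use other sets of genes by construction, which still include the first genes. On single arrays the difference ranged from -3.03 to -2.89. The count of genes higher in E19 fell from 1 to 0 with median centring, when centred on the spike-ins and at 3-fold. The count higher in E16 went from 1 to 2, by adding Ngfr, at 1.5-fold, when centred on the spike-ins and in the authors' deposited table. It was 1 to 2 on single arrays. Of 104 ratios of single genes under alternatives, 84 moved by less than the SD of the arrays and 20 by more. Many of the 84 could not do otherwise, so that count is no measure of robustness. Leaving out an array always shifts a mean by less than that SD, and the probe rules leave a gene with 1 probe unchanged. Only 1 of the 104, of Pmp22, took the other sign. Over all genes, 613 were called higher in E19 and 554 in E16, against 389 and 810 when centred on the spike-ins, 367 and 439 with median centring, 1014 and 889 with processed signals, 1198 and 999 in the authors' deposited table, and 1413 and 1137 at 1.5-fold. The cause of these moves was not tested. Counts from the authors' deposited table need only 1 combined ratio past 2-fold, a looser rule than 2-fold on both arrays, so they are not like for like. S100b, Mag, Pax3, Foxd3, the dimmer Mbp probe and, in E16, Erbb3 were close to background, which limits how small a difference they can show.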
